A study of Mus musculus with 51 samples.

Results

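*Olfr701*, *Olfr705* and *Olfr706* are 3 olfactory receptor (OR) genes that lie close together on mouse chromosome 7. They were chosen by their symbols, as 3 of the 1117 OR genes measured, because all of them rose after mice smelled (E)-β-farnesene. The (E)-β-farnesene values therefore describe how the genes were chosen and are given without a test, and the tests concern the other odorants, above all 2-sec-butyl-4,5-dihydrothiazole (SBT).

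Each olfactory sensory neuron (OSN) of the nose expresses in general a single OR gene, and the receptor sets which odorants excite the cell. Odor activity leads to phosphorylation of the ribosomal protein S6 (pS6) in the responding neurons. In pS6-IP-Seq an antibody against pS6 pulls down the phosphorylated ribosomes with their mRNA, so the OR transcripts of recently active OSNs take a larger share of the OR reads. (E)-β-farnesene and SBT are both volatile cues of mature male mice.

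The data are 51 libraries of whole olfactory mucosa from C57BL/6J mice about 3 weeks old, of mixed sex, exposed for 1 hr to an odor stimulus or to diluent, with 3 libraries in each of 10 odor groups and 7 control groups. The stimuli were 100% (E)-β-farnesene (farnesene in the plots), 1% 2,5-dimethylpyrazine (2,5-DMP), (methylthio)methanethiol (MTMT) at 100 μM (100 uM in the plots) and 10 mM, 1% β-caryophyllene (b-caryophyllene in the plots), 77% 3,4-dehydro-exo-brevicomin (DHB), 100 mM cyclopentadecanone (CPD), and SBT at 0.01%, 1% and 100%. The groups given (E)-β-farnesene, 2,5-DMP and 100 μM MTMT shared 3 control libraries, and those given 1% and 100% SBT shared 3 others, so comparisons with the same controls are not independent. The study used ethanol as diluent for MTMT and CPD and water otherwise, and the labels do not say which diluent each control mouse received.

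OR reads per library ranged from 27301 to 160001 (median 93870), and the controls of 1% and 100% SBT were the shallowest group (27301 to 57154). The tables list OR genes only, so markers of the tissue outside this family were not analysed, and a larger share cannot be told apart as more active cells or as more receptor mRNA captured per cell. Differences between replicates exceeded counting noise in each of the 51 replicate pairs, and the spread between libraries is used throughout.

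In the GRCm38 mouse genome, *Olfr701* (ENSMUSG00000036744, chr7:106814129-106821472) lies on the plus strand, and *Olfr705* (ENSMUSG00000109058, chr7:106871870-106876891) and *Olfr706* (ENSMUSG00000109354, chr7:106882589-106888162) lie on the minus strand. The gap between *Olfr701* and *Olfr705* is 50.4 kb and holds *Olfr702*, *Olfr703* and *Olfr704*, while *Olfr705* and *Olfr706* are direct neighbours 5.7 kb apart. As is usual for ORs, the coding part of each gene sits in 1 exon, of 951 bases including the stop codon, at chr7:106818085-106819035 for *Olfr701*, chr7:106873293-106874243 for *Olfr705* and chr7:106885865-106886815 for *Olfr706*. All 3 belong to the MOR283 family, a group of 12 OR genes related by sequence. Over the coding sequence *Olfr701* and *Olfr706* were 86.2% identical, *Olfr701* and *Olfr705* 82.5%, and *Olfr705* and *Olfr706* 80.6%. *Olfr701* and *Olfr706* were each other's closest relative among the 12 MOR283 genes, whereas *Olfr705* was closer to *Olfr700* (83.5%) and *Olfr693* (83.0%) than to either.

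The following stretch of 120 coding bases, positions 461 to 580 counted from the A of the start codon, is where the 3 genes were least alike, with 75 positions the same in all. It shows how far the receptors can be told apart by sequence, and capitals mark the bases at which a gene is unlike both others. The stretches are at chr7:106818545-106818664 (plus strand), chr7:106873664-106873783 (minus strand) and chr7:106886236-106886355 (minus strand) of GRCm38.
*Olfr701*: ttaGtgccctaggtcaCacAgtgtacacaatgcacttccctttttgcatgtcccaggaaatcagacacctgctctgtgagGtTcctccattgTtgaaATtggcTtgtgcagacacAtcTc
*Olfr705*: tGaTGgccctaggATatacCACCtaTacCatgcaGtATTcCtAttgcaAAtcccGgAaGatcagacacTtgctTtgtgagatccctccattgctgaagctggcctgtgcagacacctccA
*Olfr706*: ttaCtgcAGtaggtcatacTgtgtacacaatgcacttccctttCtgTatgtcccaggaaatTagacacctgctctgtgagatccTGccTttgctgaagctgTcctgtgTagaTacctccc
In this stretch *Olfr705* had 25 bases of its own, against 11 in *Olfr701* and 13 in *Olfr706*.

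The stretch of the same length in which they were most alike, coding positions 101 to 220, had 103 positions the same in all 3 genes. It is shown with the same use of capitals because reads from such a stretch are the hardest to assign. It lies at chr7:106818185-106818304, chr7:106874024-106874143 and chr7:106886596-106886715.
*Olfr701*: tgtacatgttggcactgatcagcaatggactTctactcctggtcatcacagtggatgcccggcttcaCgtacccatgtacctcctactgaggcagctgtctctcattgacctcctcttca
*Olfr705*: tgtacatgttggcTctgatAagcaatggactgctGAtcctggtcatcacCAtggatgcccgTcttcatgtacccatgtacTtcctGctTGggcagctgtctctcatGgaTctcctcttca
*Olfr706*: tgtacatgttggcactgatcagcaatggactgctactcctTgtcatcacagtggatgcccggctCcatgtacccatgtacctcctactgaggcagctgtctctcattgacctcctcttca
*Olfr701* and *Olfr706* each had 2 bases of their own here and *Olfr705* had 13. Even so, stretches of 50 bases, about a read, were seldom shared: over all exons, 17 of 4238 stretches of *Olfr701*, 5 of 3083 of *Olfr705* and 29 of 4961 of *Olfr706* occurred in any other OR. The pair *Olfr701* and *Olfr706* had 13 stretches in common, *Olfr705* and *Olfr706* had 1, and *Olfr701* and *Olfr705* had 0. Exact sharing thus concerned under 1% of each gene's stretches. Matches with mismatches were not counted, and how the reads themselves were assigned was not examined.

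The levels of the 3 genes without an odor stimulus are given as shares of the reads of all 1117 ORs. Their rank among these ORs was not computed. Over the 21 control libraries *Olfr701* took 0.00681% to 0.122% of the OR reads (median 0.0704%), *Olfr705* 0.0586% to 0.125% (median 0.0916%) and *Olfr706* 0.0318% to 0.142% (median 0.0818%). The means of the 7 control groups spanned 0.0361% to 0.0960% for *Olfr701*, 0.0879% to 0.102% for *Olfr705* and 0.0663% to 0.108% for *Olfr706*. *Olfr705* was the steadiest of them and *Olfr701* the most variable. The lowest *Olfr701* level was that of the shared controls of 1% and 100% SBT, where it rested on 3, 37 and 10 reads in replicates 1, 2 and 3. The share of 0.00681% in replicate 1 has a 95% Wilson interval of 0.00232% to 0.0200%, which covers counting error only.

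Whether the resting level differed between experiments was tested over the 18 control libraries of 6 groups that the choice of the genes did not use. The edgeR quasi-likelihood test gave no call at a Benjamini-Hochberg adjusted p of 0.05, with adjusted p = 0.517 for *Olfr701*, 0.997 for *Olfr705* and 0.847 for *Olfr706*. Over all ORs tested, 2.4% were called. The unadjusted p of the 3 genes were 0.0696, 0.980 and 0.382, and DESeq2 called none of them either.

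**Figure D1:**
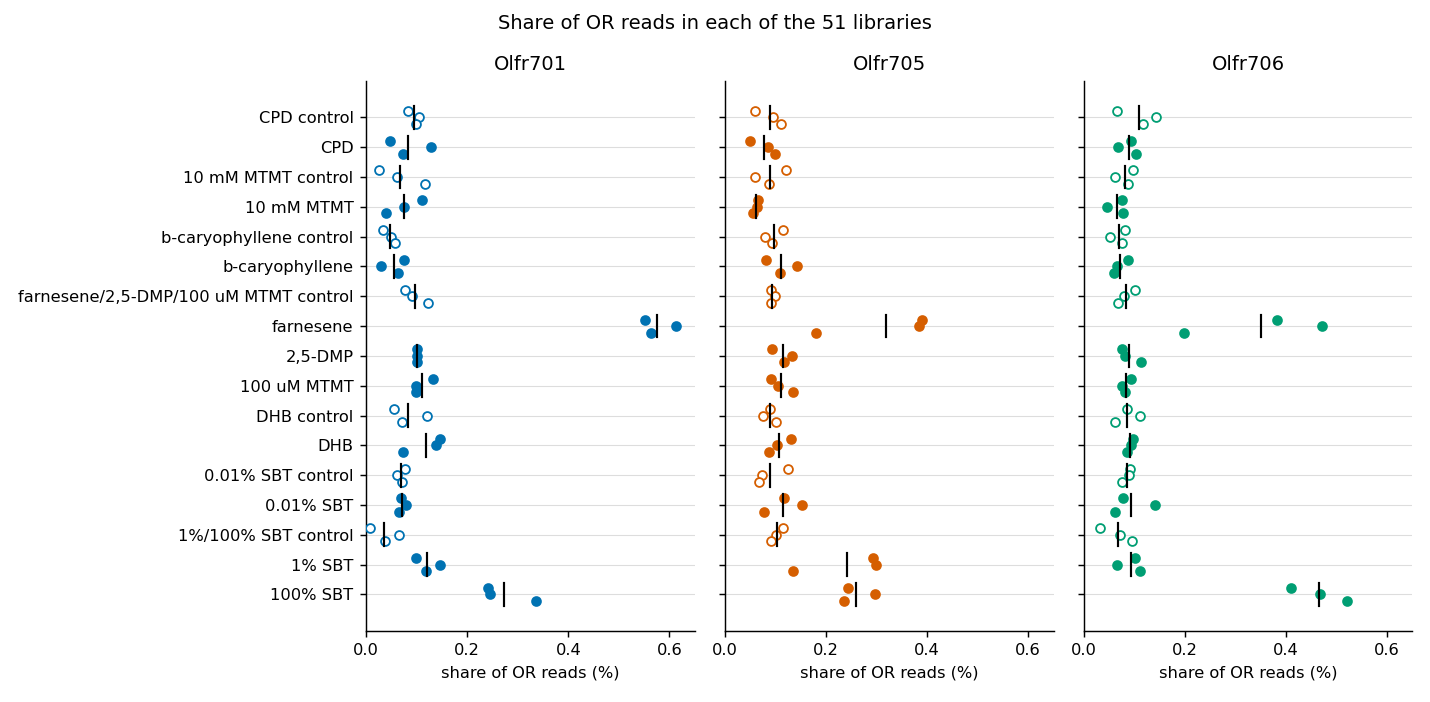
Share of all OR reads (%, linear axis from 0) taken by each gene in each of the 51 libraries, by group. Open circles are control libraries, filled circles odor libraries, placed from replicate 1 at the top of a row to replicate 3, and the black bar is the mean of 3. The groups given (E)-β-farnesene and 100% SBT stand to the right of all 21 controls in each gene. The share of all ORs that do so was not counted.

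After (E)-β-farnesene all 3 genes took a larger share in every odor library than in any control library, which is what the choice of the genes rests on. *Olfr701* reached 0.552%, 0.613% and 0.564% in replicates 1, 2 and 3, against 0.0768%, 0.0897% and 0.122% in the controls. *Olfr705* reached 0.390%, 0.384% and 0.180%, against 0.0911%, 0.0985% and 0.0907%. *Olfr706* reached 0.381%, 0.470% and 0.199%, against 0.101%, 0.0793% and 0.0672%. *Olfr701* was the highest of the 3 in each library and varied least, and the low library for *Olfr705* and *Olfr706* was the same one, replicate 3. In that library *Olfr701* was not low.

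The fitted log2 fold changes after (E)-β-farnesene were 2.62 (standard error 0.26) for *Olfr701*, 1.82 (0.29) for *Olfr705* and 2.15 (0.31) for *Olfr706*. Over all ORs tested 1.77% were called higher at an adjusted p of 0.05, and in 5.32% every odor library exceeded every control library. With replicate 3 of the odor group left out the values for *Olfr705* and *Olfr706* were 2.12 and 2.44. Together the 3 genes took 1.32%, 1.47% and 0.943% of the OR reads in the odor libraries, against 0.269%, 0.267% and 0.279% in the controls. The joint share in the controls had an SD of 0.00667% (n = 3), against 0.0230% for *Olfr701*, 0.00435% for *Olfr705* and 0.0170% for *Olfr706* alone.

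SBT is a thiazoline of male mouse urine and was given at 3 doses, the lowest with controls of its own. Whether the response over the doses differed between the genes was not tested. At 0.01% none of them separated from the controls of that dose. *Olfr701* took 0.0694%, 0.0792% and 0.0639% after 0.01% SBT and 0.0772%, 0.0616% and 0.0704% in the controls. *Olfr705* took 0.116%, 0.151% and 0.0775%, against 0.125%, 0.0726% and 0.0679%. *Olfr706* took 0.0762%, 0.140% and 0.0618%, against 0.0918%, 0.0895% and 0.0743%. The groups overlapped in all 3 genes. The log2 fold changes were 0.04 (standard error 0.28), 0.38 (0.32) and 0.13 (0.31), each with an adjusted p of 0.999 by edgeR, where 0.466% of all ORs were called higher.

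At 1% SBT, *Olfr701* and *Olfr705* stood above their controls and *Olfr706* did not. *Olfr701* took 0.0990%, 0.146% and 0.118%, against 0.00681%, 0.0647% and 0.0366% in the controls. *Olfr705* took 0.292%, 0.298% and 0.133%, against 0.114%, 0.101% and 0.0916%. For both genes the groups did not overlap, as in 3.74% of all ORs tested. Of the *Olfr701* levels after 1% SBT, 2 of 3 nevertheless lay within the range of the controls of the other experiments, which reached 0.122%. All *Olfr705* levels exceeded every one of the 21 controls, and the share of all ORs that did so was not counted. *Olfr706* took 0.101%, 0.0648% and 0.110%, against 0.0318%, 0.0717% and 0.0952%, and its groups overlapped.

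None of the 3 genes passed the test over all ORs at this dose. The log2 fold changes were 1.84 (standard error 0.61, adjusted p = 0.487 by edgeR) for *Olfr701*, 1.36 (0.41, adjusted p = 0.408) for *Olfr705* and 0.65 (0.51, adjusted p = 0.994) for *Olfr706*, and 0.863% of all ORs were called higher. The *Olfr701* value was 2.68 without control replicate 2 and 1.35 without control replicate 1. The unadjusted p were 0.00933 and 0.00547 for *Olfr701* and *Olfr705*. The exact two-sided permutation test gave p = 0.1 for both, the smallest that 3 mice against 3 allow, and p = 0.4 for *Olfr706*. In a single edgeR fit of all 51 libraries, which pools the spread of all groups, *Olfr701* (1.88, adjusted p = 0.0072) and *Olfr705* (1.40, adjusted p = 0.0127) passed, and *Olfr706* did not (adjusted p = 0.456). Across all settings tried the adjusted p ran from 0.0072 to 0.979 for *Olfr701* and from 0.0127 to 0.997 for *Olfr705*.

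Undiluted SBT raised all 3 genes, *Olfr706* the furthest in share. *Olfr706* took 0.409%, 0.467% and 0.520% of the OR reads, from 334, 488 and 299 reads, against 0.0318%, 0.0717% and 0.0952% in the controls. *Olfr701* took 0.240%, 0.245% and 0.335%, from 196, 256 and 193 reads. *Olfr705* took 0.244%, 0.297% and 0.235%, from 199, 310 and 135 reads. Every library given 100% SBT exceeded not only its own controls but all 21 control libraries, in each of the 3 genes. Separation from their own controls was found in 13.3% of all ORs tested, and the share of ORs that exceeded all 21 controls was not counted.

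By the edgeR quasi-likelihood test the log2 fold changes after 100% SBT were 3.23 (standard error 0.38, adjusted p = 0.000131) for *Olfr706*, 3.27 (0.53, adjusted p = 0.000932) for *Olfr701* and 1.72 (0.32, adjusted p = 0.00205) for *Olfr705*. The dose moved many receptors, and 10.6% of 1050 ORs were called higher, so 3 of 3 is to be read against that share. By p the genes ranked 8, 33 and 55, in that order. The calls over all ORs were 111 higher and 8 lower with TMM scaling, and 84 higher and 39 lower when libraries were scaled by their totals. With totals the log2 fold changes of the 3 genes were lower by about 0.39 each, at 2.83 for *Olfr706*, 2.88 for *Olfr701* and 1.33 for *Olfr705*, and all kept an adjusted p below the threshold. The *Olfr701* value depends on the few reads in the controls: it was 2.78 without control replicate 1 and 4.17 without control replicate 2.

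The titles of the 1% and 100% SBT libraries and their controls carry one prefix for replicates 1 and 2 and another for replicate 3, and the labels do not say what it stands for. Within the first prefix the ratio of the mean share after 100% SBT to that of the controls was 6.78 for *Olfr701*, 2.51 for *Olfr705* and 8.46 for *Olfr706*. Within the second it was 9.16, 2.56 and 5.46. For 1% SBT the ratios were 3.43, 2.75 and 1.61 within the first and 3.21, 1.46 and 1.15 within the second. The 100% ratio thus exceeded the 1% ratio within each prefix for *Olfr701* and *Olfr706*, and for *Olfr705* within the second only.

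The step from 1% to 100% SBT was tested directly between the odor groups. *Olfr706* rose by a log2 fold change of 2.60 (standard error 0.41, edgeR adjusted p = 0.000539). *Olfr701* differed by 1.46 (0.46, adjusted p = 0.0609), short of the threshold. *Olfr705* differed by 0.39 (0.36, adjusted p = 0.663). In this comparison 7.15% of all ORs were called higher, with 76 higher and 4 lower under TMM scaling and 48 higher and 13 lower under library totals. With the replicate block, that is with the replicate number as a paired factor, *Olfr701* passed at 1.49 (adjusted p = 0.0116), and it passed with DESeq2 at 1.43 (adjusted p = 0.0163). Over all settings its adjusted p ranged from 0.0116 to 0.226, against 6.97e-09 to 0.00469 for *Olfr706* and 0.52 to 0.969 for *Olfr705*.

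**Figure D2:**
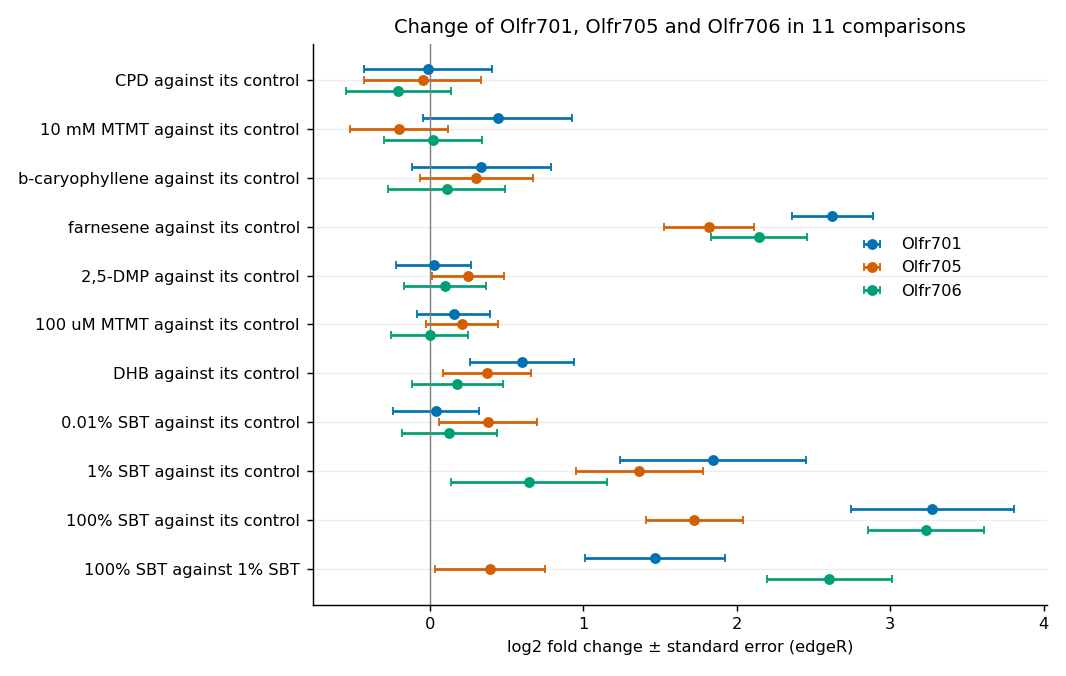
Log2 fold change (points) with its standard error (bars) from the edgeR quasi-likelihood fit, for each gene in 11 comparisons. The (E)-β-farnesene values chose the genes. Except after (E)-β-farnesene and after 1% and 100% SBT, values against controls run from -0.21 (*Olfr706* after CPD) to 0.60 (*Olfr701* after DHB). Between the SBT doses the 3 genes spread from 0.39 to 2.60.

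The makeup of the reads of the 3 genes differed between the groups given (E)-β-farnesene and SBT, and their controls were not alike either. After (E)-β-farnesene *Olfr701* supplied 41.7%, 41.8% and 59.8% of them and *Olfr706* 28.8%, 32.1% and 21.1%. After 100% SBT *Olfr701* supplied 26.9%, 24.3% and 30.8% and *Olfr706* 45.8%, 46.3% and 47.7%. After 1% SBT *Olfr705* was the main one in each library, with 59.3%, 58.6% and 37.0%. The reads of *Olfr706* per read of *Olfr701* were thus 0.691, 0.767 and 0.352 after (E)-β-farnesene and 1.70, 1.91 and 1.55 after 100% SBT, without overlap, and no test was made because the first group chose the genes. The same ratio was 1.31, 0.884 and 0.553 in the controls of (E)-β-farnesene and 4.67, 1.11 and 2.60 in those of SBT. The difference between the odor groups is therefore no measure of change from the controls. After 100% SBT the log2 fold changes of *Olfr701* and *Olfr706* were alike, at 3.27 and 3.23. In the controls shared by the SBT doses the makeup rested on 61 to 136 reads a library and varied widely, with *Olfr705* between 41.0% and 74.6%. The mean part of *Olfr705* was 52.8% in these controls and 51.6% after 1% SBT.

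**Figure D3:**
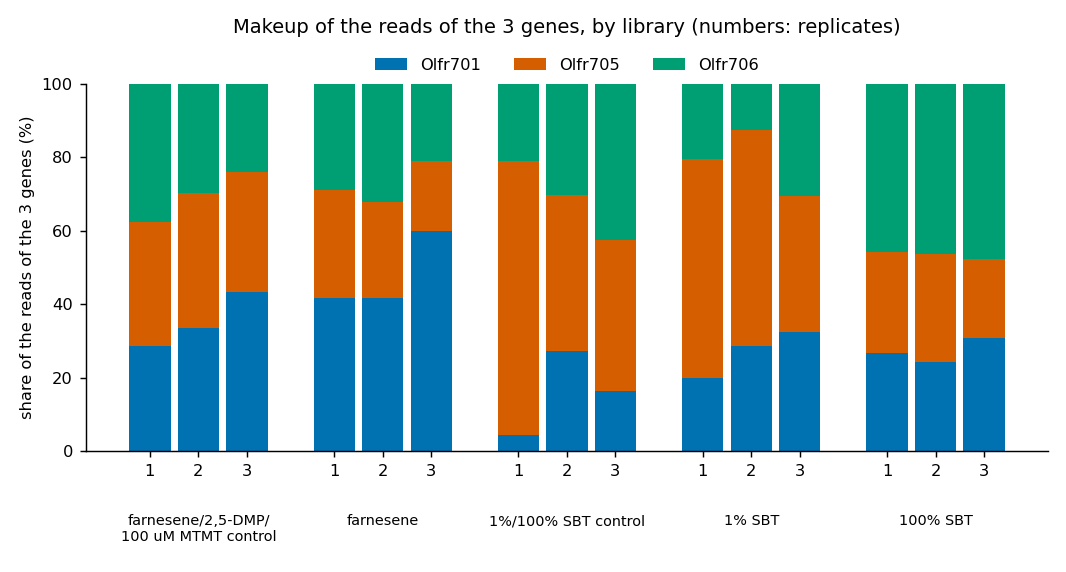
Share of the summed reads of *Olfr701*, *Olfr705* and *Olfr706* (%, stacked to 100) in each library of 5 groups, with replicate numbers under the bars. *Olfr701* forms the largest part in each library given (E)-β-farnesene, and *Olfr706* in each library given 100% SBT.

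Ranked over all 17 groups, the highest mean level of *Olfr701* followed (E)-β-farnesene (0.576% ± 0.0324, SD, n = 3), then 100% SBT (0.273% ± 0.0536), and these neighbours did not overlap. From the next, 1% SBT (0.121% ± 0.0238) and DHB (0.119% ± 0.0398), down to the lowest mean, 0.0361% ± 0.0290 in the controls of 1% and 100% SBT, each group overlapped with the one after it. For *Olfr705* the first 3 groups, (E)-β-farnesene (0.318% ± 0.119), 100% SBT (0.258% ± 0.0335) and 1% SBT (0.241% ± 0.0935), overlapped among themselves, and the fourth, 0.01% SBT (0.115% ± 0.0370), overlapped with the third. For *Olfr706* 100% SBT (0.465% ± 0.0552) came before (E)-β-farnesene (0.350% ± 0.138) with overlapping libraries, and the third mean, 0.108% ± 0.0387, was that of the CPD controls. 1% SBT ranked 5 for *Olfr706*, at 0.0920% ± 0.0240, among the controls.

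The remaining 6 exposures, 2 of which shared their controls with (E)-β-farnesene, left the genes near their control level. DHB, a brevicomin of male urine, gave the largest value: *Olfr701* took 0.147%, 0.137% and 0.0736% after DHB, against 0.0547%, 0.120% and 0.0715% in the controls, and its log2 fold change was 0.60 (standard error 0.34, edgeR adjusted p = 0.993). Its groups overlapped. The DHB values of *Olfr705* and *Olfr706* were 0.37 (0.28) and 0.18 (0.30).

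2,5-DMP, a pyrazine of female urine, gave shares of *Olfr701* of 0.1001%, 0.1002% and 0.1007% in its 3 libraries, inside the range of the controls, and log2 fold changes of 0.02 (0.24), 0.25 (0.23) and 0.10 (0.26) for *Olfr701*, *Olfr705* and *Olfr706*. MTMT, a sulfur compound of male urine, gave 0.15 (0.24), 0.21 (0.23) and -0.003 (0.25) at 100 μM and 0.44 (0.48), -0.20 (0.32) and 0.02 (0.32) at 10 mM. After 10 mM MTMT the values of *Olfr701* were mixed, with a ratio to the controls of 2.15 within the title prefix of replicates 1 and 2 and of 0.328 within that of replicate 3. β-Caryophyllene, a sesquiterpene like (E)-β-farnesene, gave 0.33 (0.45), 0.30 (0.37) and 0.11 (0.38). Its *Olfr701* shares were 0.0748%, 0.0290% and 0.0634%, against 0.0329%, 0.0495% and 0.0561% in the controls. The macrocyclic musk CPD gave -0.01 (0.42), -0.05 (0.38) and -0.21 (0.34).

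In each of these 6 comparisons and at 0.01% SBT, edgeR called 0 of the 3 genes, 0 had an unadjusted p under 0.05, and DESeq2 called 0. The shares of all ORs called higher by edgeR were 0.564% for DHB, 0.841% for 2,5-DMP, 0.281% for 100 μM MTMT and 0% for 10 mM MTMT, β-caryophyllene and CPD. In the last 3 comparisons DESeq2 called 15, 0 and 1 ORs, and 69, 51 and 40 had an unadjusted p under 0.05 by edgeR. Standard errors of 0.23 to 0.48 leave room for changes smaller than those after 100% SBT.

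The genes around them give the context of the locus. Of the 14 other ORs from *Olfr695* to *Olfr715* in the tables, 0 were called after (E)-β-farnesene by edgeR, where 1.77% of all ORs were called higher. Their median log2 fold change was 0.06, against -0.03 over all ORs. DESeq2 also called 0, and 1 had an unadjusted p under 0.05: *Olfr704*, the MOR283 gene just beside *Olfr705*, at 1.04 (standard error 0.30, adjusted p = 0.132). *Olfr702* and *Olfr703*, which lie between *Olfr701* and *Olfr704*, were at 0.08 (0.32) and 0.25 (0.33), each with an adjusted p of 0.992. The 3 genes were chosen for their rise in this comparison, so the values of the genes left out are a description.

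After 100% SBT, where 10.6% of all ORs were called higher, 1 of the 14 neighbours was called, again *Olfr704* at 1.83 (standard error 0.46, edgeR adjusted p = 0.0163), which is no more than that share. Among the 9 other MOR283 genes *Olfr704* and *Olfr694* (2.12, standard error 0.39, adjusted p = 0.00218) were called, 2 of 9, against the same 10.6%. The median was 0.50 over the neighbours and 0.71 over the MOR283 genes, against -0.08 over all ORs. Between 1% and 100% SBT the edgeR differences were 1.86 (0.48, adjusted p = 0.02) for *Olfr704* and 1.68 (0.40, adjusted p = 0.0116) for *Olfr694*. That contrast reuses the 100% SBT libraries in which both were called, and 7.15% of all ORs were called higher in it. At 1% SBT 0 of the 14 and 0 of the 9 were called by edgeR or DESeq2 or had an unadjusted p under 0.05, and *Olfr704* and *Olfr694* were at -0.03 (0.65) and 0.45 (0.52).

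After 2,5-DMP other genes of the family were called. Of the 14 neighbours 2 were called higher by edgeR, *Olfr698* and *Olfr699*. The MOR283 list, which was added after the files had been seen, also holds *Olfr693* and *Olfr694*. Of the 9 other MOR283 genes 4 were called higher by edgeR after 2,5-DMP, where 0.841% of all ORs were: *Olfr693* at 2.16 (standard error 0.25), *Olfr699* at 1.96 (0.35), *Olfr698* at 1.84 (0.26) and *Olfr694* at 1.67 (0.29), with adjusted p from 4.26e-05 to 0.00212. All 4 lie on the far side of *Olfr701* from *Olfr705* and *Olfr706*. Their changes after (E)-β-farnesene ranged from -0.33 to 0.18 with none called. *Olfr694* was called after both 2,5-DMP and 100% SBT. At 0.01% SBT the neighbour called was *Olfr714* (1.71, standard error 0.32, adjusted p = 0.0111), which is not a MOR283 gene by its RefSeq synonyms, and in the 5 comparisons not named here none of the neighbours or MOR283 genes were called by edgeR or DESeq2, and 0 to 3 of the 14 neighbours had an unadjusted p under 0.05.

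**Figure D4:**
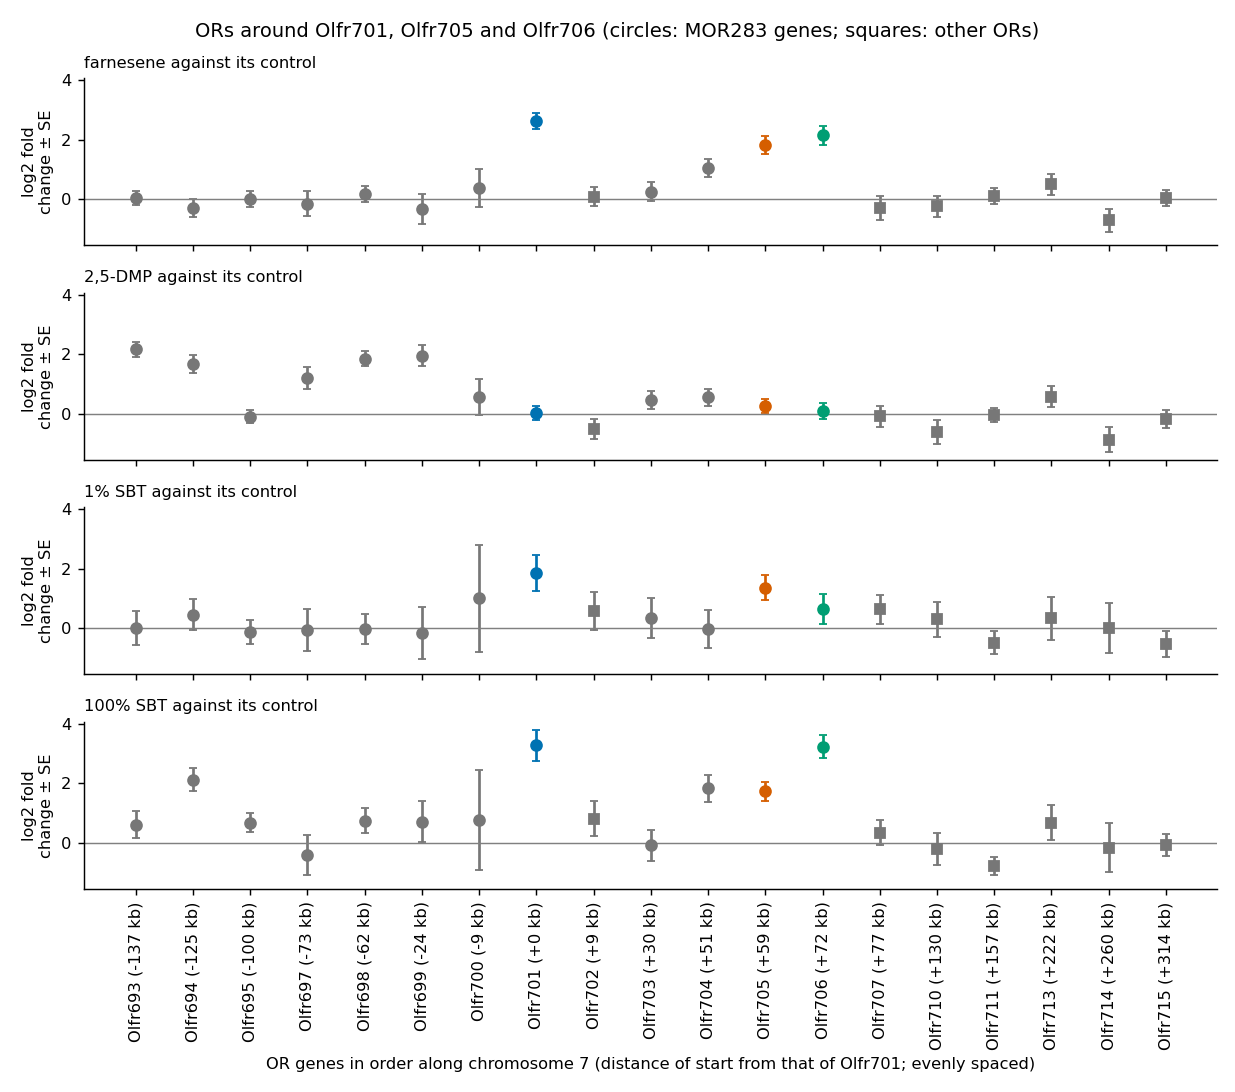
Log2 fold change with its standard error for the 19 ORs listed, in chromosomal order and evenly spaced, with the distance from *Olfr701* in kb under each name; circles are MOR283 genes, squares other ORs, and colors mark *Olfr701*, *Olfr705* and *Olfr706*. The colored genes were chosen for their rise after (E)-β-farnesene, so their high place in that row follows from the choice. They lie near 0 after 2,5-DMP, where *Olfr693*, *Olfr694*, *Olfr698* and *Olfr699* were called. After 100% SBT *Olfr694* and *Olfr704* were also called, where 10.6% of all ORs were called higher.

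ORs with the most similar pattern were found by Pearson's r of log2 share over the 51 libraries, among 939 ORs with a mean of at least 10 reads. These points share controls and depth, and they include the (E)-β-farnesene libraries that chose the genes, so r is a description. *Olfr706* was the most similar to *Olfr701* (r = 0.755), followed by *Olfr11* (0.683) and *Olfr115* (0.610), and *Olfr705* ranked 4 (0.596). For *Olfr706* the order was *Olfr11* (0.798), *Olfr701* and *Olfr705* (0.696). *Olfr705* was most like *Olfr193* (0.747) and *Olfr1352* (0.718), with *Olfr706* at rank 3 and *Olfr701* at rank 9. The likeness of the 3 genes to each other was weaker over the 48 libraries without (E)-β-farnesene, a setting added after the data were seen. There *Olfr706* ranked 7 for *Olfr701* (r = 0.649), *Olfr705* ranked 67 for *Olfr701* (0.409), and *Olfr706* ranked 32 for *Olfr705* (0.564). The nearest ORs were then *Olfr1477* (0.699) for *Olfr701*, *Olfr1352* (0.763) for *Olfr705* and *Olfr96* (0.845) for *Olfr706*.

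The fitted changes of the ORs nearest over all 51 libraries stand beside those of the 3 genes as follows. *Olfr11* was at 2.75 (standard error 0.26) after (E)-β-farnesene, -0.04 (0.49) after 1% SBT and 3.00 (0.32) after 100% SBT, where *Olfr706* was at 2.15, 0.65 and 3.23. *Olfr1352* was at 0.89 (0.27), 2.31 (0.51) and 1.56 (0.44), where *Olfr705* was at 1.82, 1.36 and 1.72, and at 1% SBT *Olfr1352*, like *Olfr705*, was not called (edgeR adjusted p = 0.0552). *Olfr193* was at 1.76 (0.42), 1.23 (0.53) and 1.198 (0.50). *Olfr115* was at 0.15 (0.24) after (E)-β-farnesene, 1.02 (0.49) after 1% SBT and 1.88 (0.45) after 100% SBT.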

How the data were processed

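Whole olfactory mucosa was profiled by pS6-IP-Seq in 51 libraries, grouped by the odorant and role in the sample labels. Alignment by the authors used STAR, GRCm38.p6 and GENCODE M25 without 1 gene model, and they estimated reads per gene with RSEM, which splits reads that fit several genes, and kept intact OR genes. The deposited values are these expected counts, given as whole numbers without normalization, for 1117 ORs. The kit is not stated to keep strand. The authors' columns of fold changes, p-values and FDR were not used, nor was the table of 2-heptanone, whose 6 per-sample columns match no sample label.

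Tests used edgeR 4.0.16 (R 4.3.3), with TMM factors from the OR genes, a minimum of 10 reads per OR summed over a comparison, glmQLFit, glmQLFTest and Benjamini-Hochberg adjustment over all ORs tested, with a threshold of 0.05. The fit was tested on simulated data. The standard error is the size of the log2 fold change over the square root of F. Shares are percent of OR reads, with 95% Wilson intervals from scipy 1.17.1. Exact permutation tests used log2 of the share per 100000 OR reads plus 5. Alternatives were DESeq2 1.42.0, a replicate block, scaling by library totals, a minimum of 1 read, the likelihood ratio test, 1 fit over the 51 libraries together, and leaving out each library.

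The members and lists were chosen with earlier results of these data known, and the MOR283 list, taken from RefSeq synonyms, was added after the files had been seen. ORs named were the 3 members, the ORs from *Olfr695* to *Olfr715*, the 9 other MOR283 genes, and for each member the 3 ORs most like it over the libraries. *Olfr1477* and *Olfr96* were chosen once their values were known. A list of ORs by protein identity was not made, and coding sequences from GENCODE M21 and GRCm38 were used. The study matched mice by litter, but no label ties a replicate number to a litter. Deviations from the group means correlated between odor and control libraries of equal number at 0.0451 to 0.429, above 0.1 for each number in 7 of 10 comparisons, and at 0.180 to 0.236 between 1% and 100% SBT, so there equal numbers may mark pairs. The main fits and the permutation tests are unpaired, and the replicate block is an alternative, printed beside a result where it changes the call.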

Additional observations from a re-analysis of the deposited data

Results flagged for a closer look

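Between the SBT doses, *Olfr706* differed by a log2 fold change of 2.60 (standard error 0.41, edgeR adjusted p = 0.000539), and was singled out because its response at 100% and at 1% differed by a direct test. It was higher in 3 of 3 libraries of 100% SBT (0.409% to 0.520% of OR reads) than in any library of 1% SBT (0.0648% to 0.110%). These are the libraries of the test that singled it out, so the separation is a description. Among all ORs 7.15% were called higher by edgeR in this comparison, and the share with separated libraries was not counted. OR reads per library were 41426 to 66366 at 1% and 57551 to 104517 at 100% SBT, and the part of depth in the difference was not tested.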

How the results depend on the processing

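Of the alternative values of the 30 tested changes, 315 kept direction and side of the threshold, 4 passed it anew and 32 changed sign, all of these uncalled. The 36 values after (E)-β-farnesene, which has no test, kept their sign, and in 60 repeats of the test over control groups none of the 3 genes was called. All 3 calls after 100% SBT and the call of *Olfr706* between the SBT doses held in every setting run. New calls were *Olfr701* (1.88) and *Olfr705* (1.40) after 1% SBT in the fit of all 51 libraries, and *Olfr701* between the SBT doses with the replicate block (1.49) and DESeq2 (1.43); the replicate block changed no other call of the 3 genes. The causes were not tested. Log2 fold changes that changed sign were *Olfr701* after CPD with at least 1 read (0.0024), *Olfr706* after 10 mM MTMT with DESeq2 (-0.003), totals (-0.309) and all 51 libraries (-0.0137), and *Olfr706* after 100 μM MTMT with the block (0.003), totals (0.0319), at least 1 read (0.0159) and all 51 libraries (0.0085). With 1 library left out, sign changes lay within these ranges: CPD, *Olfr701* -0.64 to 0.29, *Olfr705* -0.27 to 0.21, *Olfr706* -0.46 to 0.023; 10 mM MTMT, *Olfr705* -0.43 to 0.11, *Olfr706* -0.22 to 0.20; β-caryophyllene, *Olfr706* -0.039 to 0.25; 2,5-DMP, *Olfr701* -0.066 to 0.20, *Olfr706* -0.10 to 0.30; 100 μM MTMT, *Olfr706* -0.16 to 0.20; DHB, *Olfr706* -0.037 to 0.45; 0.01% SBT, *Olfr701* -0.059 to 0.12, *Olfr706* -0.25 to 0.33. Over all settings the ORs called higher ran from 0 to 37 after 10 mM MTMT (0 in the test reported, 37 without its replicate 1, 27 in the fit of all 51 libraries, 15 with DESeq2), from 8 to 27 after (E)-β-farnesene (19 in the test reported, 8 without its replicate 2, 10 without control replicate 2, 12 without its replicate 1 and in the fit of all 51 libraries, 27 without its replicate 3), from 7 to 15 after 2,5-DMP (9 in the test reported), from 0 to 7 after 100 μM MTMT (3 in the test reported), from 3 to 7 after 0.01% SBT (5 in the test reported), from 4 to 8 after DHB (6 in the test reported), from 0 to 1 after CPD (0 in the test reported), from 0 to 23 after 1% SBT (9 in the test reported, 0 without its replicate 1, 23 in the fit of all 51 libraries) and from 48 to 94 between the SBT doses (76 in the test reported, 48 with totals), so the shares of all ORs called move likewise. The shallow controls of 1% and 100% SBT, with 27301 to 57154 OR reads, limit the precision for *Olfr701*.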
